A study of Mus musculus with 14 samples.

Results

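The 4 Hox clusters of the mouse genome were examined for open chromatin in 4T1 cells kept in normoxia or in hypoxia. The members were the protein-coding genes of the mm9 annotation named Hoxa, Hoxb, Hoxc or Hoxd and a number, which were 39 of 22238 protein-coding genes. The Hoxa cluster held 11 of them (mm9 chr6:52105366-52210874, minus strand) and the Hoxb cluster 10 (chr11:96055630-96229570, plus strand). The Hoxc cluster held 9 (chr15:102751534-102867274, plus strand) and the Hoxd cluster 9 (chr2:74506367-74603200, plus strand). With 50 kb on each side, the 4 clusters formed windows of 892 kb in all. After overlapping peaks of all lists were merged, these windows held 34 of 108795 accessible regions.

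4T1 is a mouse mammary tumor cell line. Bulk ATAC-seq, in which a transposase inserts sequencing adapters into accessible DNA, was performed on 14 samples, 2 in each of 7 groups. One group was labelled normoxic, and its labels give no oxygen level of its own and repeat the hypoxia protocol. The control 4T1 cells of the study's flow cytometry were kept in oxygen below that of air and above that of hypoxia, and normoxia may mean this level here too. The other 6 groups had 1% oxygen for 6, 12, 24, 36, 48 or 72 h. No allele, drug or other agent was named for any group, and all samples were fixed cells of the same line. Each group was given as 1 peak list called on the merged reads of both samples. The values below therefore carry no replicate error, no test between groups was possible, and the intervals printed cover counting error only.

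The lists held 49006 to 81732 peaks. Read totals were not given, but the fold enrichment and the p-value of a summit together fix its whole number of reads and its local background, and this solution was found for 100% of summits in every list. The lowest background of a list, taken as that of the genome, was 0.926 reads in normoxia and 1.85 to 3.25 reads in the hypoxia lists. Over all peaks, the median fold enrichment was 6.23 in normoxia and 4.94 to 5.84 in hypoxia. In this fold a constant is added to both reads and background, as given under processing, which lowers it more where both are few. Each list had a promoter peak for all 6 epithelial marker genes (Epcam, Cdh1, Krt8, Krt18, Esrp1, Grhl2). Of the immune markers Csf1r had one in all 7 lists, while Ptprc, Cd3e, Itgam and Cd79a had none. Among the endothelial markers Pecam1 had one at 12, 36 and 48 h and the other 3 had none. Among the fibroblast markers Pdgfra had one in all 7 lists, Col1a1 had one from 12 h to 72 h and in neither of the earlier lists, and Col3a1 and Pdgfrb had none.

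Hox genes encode homeodomain transcription factors that set the identity of body segments along the head-to-tail axis. They lie side by side in the same order as the body levels they pattern, with group 1 genes acting toward the head and group 13 genes at the tail end, in the limbs and in the urogenital tract. Active Hox genes carry open CpG-rich chromatin, whereas silent stretches of the same cluster are compacted by Polycomb proteins, and sites of the looping factor CTCF separate such stretches. Adult epithelia, the mammary gland included, keep a subset of these genes in use.

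Before the values, the sequences at the summits of the regions that the results turn on are given, 100 bp on each side of the strongest summit, or the part of that stretch outside annotated exons, on the plus strand of mm9. The first 3 sequences show base composition, with every CpG in capitals. Hoxa-R1 was the strongest region of the Hoxa window and lay between Hoxa13 and Evx1. Hoxa-R3 was the region at the start of Hoxa13 and appeared in hypoxia lists only. Hoxc-R3 lay in an intron of Hoxc6 and was the strongest region of the Hoxc window.
Hoxa-R1, chr6:52256103-52256303: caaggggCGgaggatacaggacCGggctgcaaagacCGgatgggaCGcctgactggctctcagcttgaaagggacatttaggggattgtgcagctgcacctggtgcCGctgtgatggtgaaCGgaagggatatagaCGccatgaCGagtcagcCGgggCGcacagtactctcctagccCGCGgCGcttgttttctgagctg
Hoxa-R3, chr6:52210884-52211084: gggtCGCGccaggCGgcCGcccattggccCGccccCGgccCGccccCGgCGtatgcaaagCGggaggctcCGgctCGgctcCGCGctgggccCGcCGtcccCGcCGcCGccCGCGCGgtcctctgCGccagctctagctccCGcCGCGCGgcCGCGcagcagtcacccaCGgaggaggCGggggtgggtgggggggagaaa
Hoxc-R3, chr15:102829716-102829916: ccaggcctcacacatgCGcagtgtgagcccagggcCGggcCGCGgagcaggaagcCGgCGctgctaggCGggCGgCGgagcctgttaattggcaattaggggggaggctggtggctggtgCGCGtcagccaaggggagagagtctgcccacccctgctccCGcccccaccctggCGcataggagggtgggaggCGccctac

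The 6 sequences that follow show motif letters. Capitals mark ACGTG or GCGTG (the core bound by hypoxia-inducible factors, HIF), TGANTCA (AP-1), TAATTA (a homeobox core), TGATNNAT (bound by PBX and HOX together) or the CTCF consensus with at most 1 mismatch, each on either strand. Hoxb-R3, between Hoxb1 and Skap1, was the strongest region of all 4 windows, and Hoxb-R2 was the only region inside the Hoxb cluster. Hoxa-R9 and Hoxa-R15 were promoter regions of Hoxa6 and Hoxa4 with no normoxia peak. Hoxa-R12, printed for the 89 bases outside exons, lay at the start of Hoxa5, and Hoxd-R2 lay between Hoxd13 and Hoxd12. In Hoxb-R3 and at the first base of Hoxa-R15 the marked letters read the same on both strands and so count as a match on each, and in Hoxa-R15 a HIF core overlaps the PBX-HOX letters.
Hoxb-R3, chr11:96275025-96275225: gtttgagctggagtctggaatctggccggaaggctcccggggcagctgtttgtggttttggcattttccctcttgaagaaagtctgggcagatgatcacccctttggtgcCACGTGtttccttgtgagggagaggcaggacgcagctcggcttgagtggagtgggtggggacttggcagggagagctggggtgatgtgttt
Hoxb-R2, chr11:96121755-96121955: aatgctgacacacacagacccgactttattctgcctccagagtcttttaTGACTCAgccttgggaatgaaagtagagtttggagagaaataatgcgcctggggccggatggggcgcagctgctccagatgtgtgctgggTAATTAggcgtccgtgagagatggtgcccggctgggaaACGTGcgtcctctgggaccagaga
Hoxa-R9, chr6:52161654-52161854: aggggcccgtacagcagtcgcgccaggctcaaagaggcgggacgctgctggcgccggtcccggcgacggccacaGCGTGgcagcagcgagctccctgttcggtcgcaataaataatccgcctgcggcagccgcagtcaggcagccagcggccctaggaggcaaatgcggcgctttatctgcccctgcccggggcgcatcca
Hoxa-R15, chr6:52141937-52142137: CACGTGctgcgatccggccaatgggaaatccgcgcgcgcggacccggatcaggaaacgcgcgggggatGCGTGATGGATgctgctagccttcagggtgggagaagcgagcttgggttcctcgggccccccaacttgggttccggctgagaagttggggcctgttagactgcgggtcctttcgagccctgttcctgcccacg
Hoxa-R12, chr6:52154587-52154675: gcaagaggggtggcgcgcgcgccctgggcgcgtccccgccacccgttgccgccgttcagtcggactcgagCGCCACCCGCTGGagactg
Hoxd-R2, chr2:74511177-74511377: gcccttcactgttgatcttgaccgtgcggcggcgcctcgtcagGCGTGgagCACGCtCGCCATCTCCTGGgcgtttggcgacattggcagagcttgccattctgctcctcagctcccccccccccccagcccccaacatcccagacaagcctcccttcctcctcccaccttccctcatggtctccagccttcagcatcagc

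The question of where the clusters were open was addressed first. The Hoxa window held 22 of the 34 regions, 20 of them inside the cluster itself. The Hoxb window held 3, the Hoxc window 3 and the Hoxd window 6. Per 100 kb this was 10.7 regions in the Hoxa window, 1.1 in the Hoxb window, 1.39 in the Hoxc window and 3.05 in the Hoxd window, against 4.1 over the genome. Inside the clusters the figures were 19 for Hoxa and 0.575 for Hoxb. One cluster thus held most of the open regions, and in the map of peaks along the clusters its peaks run from the start of Hoxa13 to the anterior end of the cluster, with an empty stretch over Hoxa11.

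**Figure D1:**
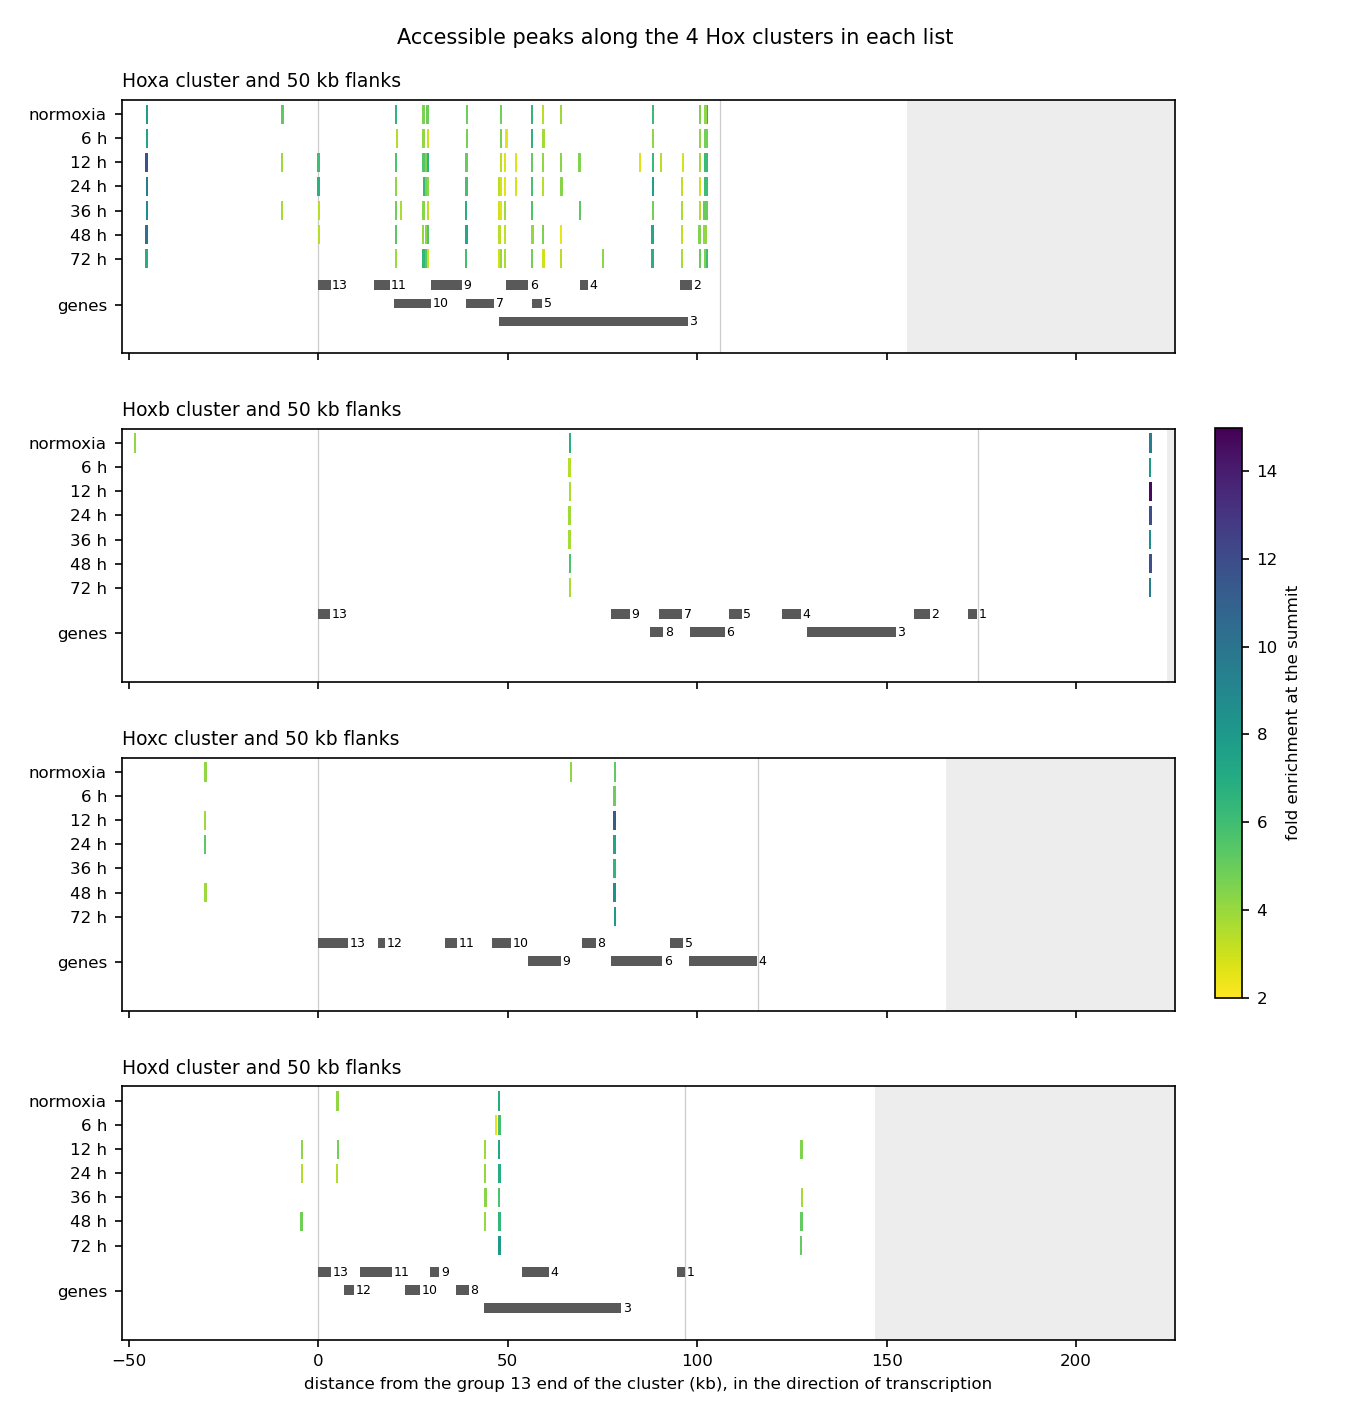
Peaks of each list (rows) along the 4 Hox windows, by distance in kb from the group 13 end of the cluster in the direction of transcription. Each bar is 1 peak, colored by fold enrichment and drawn at least 0.6 kb wide; grey bars below are Hox genes with their group number, grey lines are the cluster ends, and the shaded area lies outside the window. The Hoxa cluster holds 20 regions and the Hoxb cluster 1.

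The number of peaks in the windows followed the length of the list. It was 22 in normoxia and 17, 30, 26, 23, 24 and 23 in the hypoxia lists from 6 to 72 h. Per 10000 peaks of the list these were 3.66 in normoxia and 3.47, 3.67, 3.63, 3.67, 3.23 and 3.59 in hypoxia. The share of Hox peaks in a list therefore lay between 3.23 and 3.67 per 10000, with normoxia inside the hypoxia range. The peaks covered 0.979% of the window bases in normoxia and 0.763% to 1.57% in hypoxia, where the genome had 1.09% in normoxia and 0.898% to 1.62% in hypoxia. Pooled over the 4 windows, the Hox peaks had a lower median fold enrichment than all peaks in each of the 7 lists. It was 4.9 in normoxia and 4.22, 4.49, 4.28, 4.3, 4.53 and 4.84 from 6 to 72 h, while the medians of all peaks were 6.23 and 4.94, 5.69, 5.84, 5.37, 5.5 and 5.11. By window, the Hoxa median was below that of all peaks in every list (3.85 to 4.9). The Hoxb median, of 2 or 3 peaks in a list, was above it in every list (6.75 in normoxia and 5.73 to 9.1 in hypoxia). The Hoxc median, of 1 or 2 peaks, was above it from 12 to 72 h (6.25 to 7.95), and the Hoxd median at 72 h only (6.57). By summit reads, the medians of the Hox peaks and of all peaks were 25.5 and 25 at 48 h and 23 and 23 at 72 h, and the Hox median was lower in the other 5 lists.

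Peaks inside the Hoxa cluster sat on a raised local background. This background is the read level expected around a summit, from the genome or from the surrounding bases where that is higher, and fold enrichment is measured against it. In normoxia the background was at least 2 times that of the genome under 9 of the 12 peaks inside the Hoxa cluster (75%), against 41.3% of all peaks. In the hypoxia lists, from 6 to 72 h, the shares inside the Hoxa cluster were 0%, 57.9%, 58.8%, 46.7%, 53.3% and 52.9%. Over all peaks they were 16.8%, 29.9%, 30.6%, 25.5%, 28% and 24.8%. The 6 h list, which had the highest genome background, was the exception, with 0 of its 11 peaks inside the cluster at that level. Outside the Hoxa window only Hoxd-R5 in normoxia reached it.

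Nearly all of the raised background lay anterior of Hoxa7, from Hoxa-R8 on, with a dip near Hoxa4. The one peak at 2 or more on the posterior side was a normoxia peak of Hoxa-R6, by Hoxa10 and Hoxa9, at 2.01. Hoxa-R7, at the Hoxa7 start, had 1.58 in normoxia and 1 to 1.34 in hypoxia. At Hoxa-R12, the Hoxa5 promoter, the background was 4.58 times that of the genome in normoxia and 1.59, 3.02, 2.98, 2.52, 2.5 and 2.06 times from 6 to 72 h. At Hoxa-R21, 101 kb from the group 13 end, it was 4.82 in normoxia and 1.95 to 3.88 in hypoxia. At Hoxa-R3, the Hoxa13 promoter, it was 1 in each of the 4 lists with a peak, and at Hoxa-R4 in Hoxa10 it was 1 to 1.16 in the 7 lists. Hoxa-R15, the Hoxa4 promoter, had a background of 1 at 12 and 36 h. The same number of reads gave different fold enrichments as a result. At 12 h, 27 reads gave a fold of 6.64 at Hoxa-R6 by Hoxa10 and Hoxa9 and of 2.71 at Hoxa-R11 at the Hoxa6 start.

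**Figure D2:**
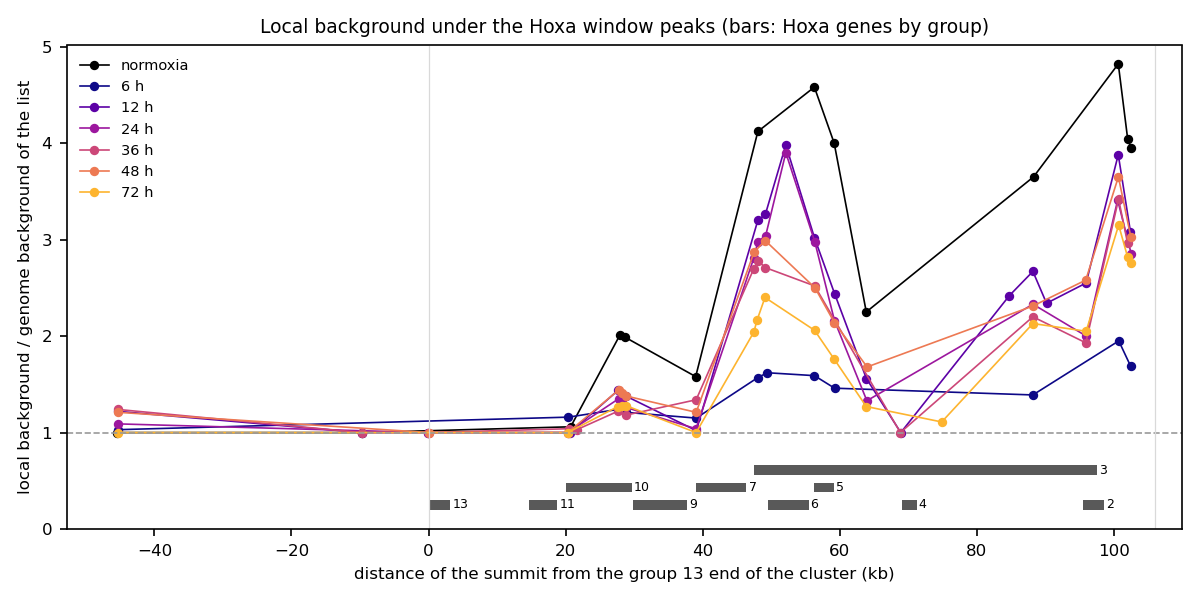
Local background under each peak of the Hoxa window divided by the genome background of its list, by distance of the summit from the group 13 end in kb. Colored lines join the peaks of a list, the dashed line is the genome background, and grey bars are Hoxa genes with their group number. All values of 2 or more lie between 40 and 105 kb but for 1 normoxia peak of Hoxa-R6 (2.01), and at the regions of all 7 lists in that stretch normoxia is the highest list (4.82 at Hoxa-R21) and 6 h the lowest.

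The promoters were examined gene by gene, taking the bases within 1 kb of each annotated start as a promoter. A promoter peak was found in every list for 7 of the 39 Hox genes (17.9%), among them Hoxa3, Hoxa5, Hoxa7, Hoxa9, Hoxa10 and Hoxc6. Among all protein-coding genes this share was 46.7%. No list had a promoter peak for 27 Hox genes (69.2%), where the share of all genes was 42.2%. These 27 were Hoxa11, all 10 Hoxb genes, the 8 Hoxc genes other than Hoxc6, and the 8 Hoxd genes other than Hoxd3. Among them are Hoxa11, which acts in the forearm and uterus, Hoxb13, known from the prostate, and Hoxd13, which patterns the digits. The remaining 5 genes (12.8%, against 6.61% of all genes) had none in the normoxia list and one in at least 1 hypoxia list: Hoxa2, Hoxa4, Hoxa6, Hoxa13 and Hoxd3. Only genes without a normoxia promoter peak could show this. Such a peak was present for 17.9% of Hox genes and 51.2% of all genes, so the bases of the shares differ. The normoxia list also had the lowest genome background, 0.926 reads against 1.85 to 3.25 in hypoxia. Whether it held enough reads to call peaks as weak as those of these genes was not tested. No Hox gene had a normoxia promoter peak that was missing in a hypoxia list, a pattern of 4.43% of all genes. Only the 7 Hox genes with a normoxia peak could show it.

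Long transcripts of several Hox genes start beside a neighbouring gene, so these counts depend on which starts are used. With 1 start for each gene, the one nearest to its coding sequence, only 3 genes, Hoxa3 and Hoxa5 among them, kept a promoter peak in all 7 lists (35.5% of all genes on the same rule), and 32 Hox genes had none (54.4% of all genes). Hoxa7, Hoxa9, Hoxa10, Hoxc6 and Hoxd3 then had no promoter peak. Hoxa2, Hoxa4, Hoxa6 and Hoxa13 still had one in hypoxia lists only, although that of Hoxa6 was left at 12 and 24 h. This rule was chosen after the values were seen.

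**Figure D3:**
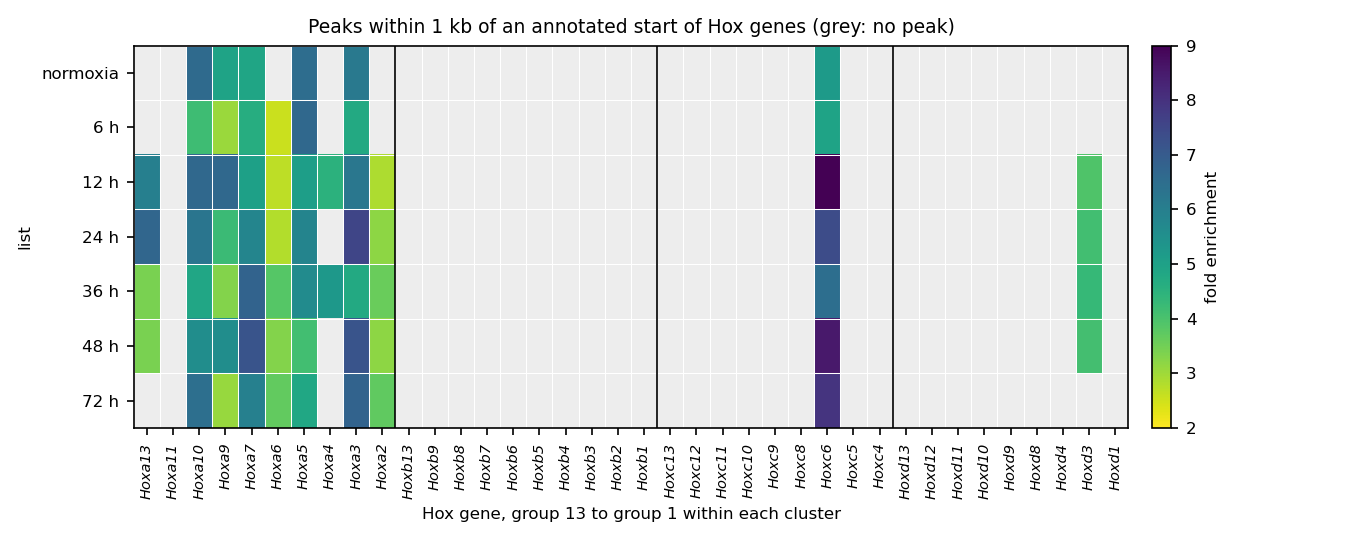
Fold enrichment of the strongest peak within 1 kb of any annotated start, for the Hox genes shown (columns, group 13 to group 1 within each cluster) in the 7 lists (rows). Grey cells have no peak, and black lines separate the clusters. The colored cells are those of the Hoxa genes drawn other than Hoxa11, of Hoxc6 and of Hoxd3.

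By position in the cluster, a peak was constant over the 7 lists for 2 of 8 anterior genes (groups 1 to 3), 3 of 15 central genes (groups 4 to 8) and 2 of 16 posterior genes (groups 9 to 13). No list had a peak for 4 of the anterior, 10 of the central and 13 of the posterior genes. The Hoxa genes with a constant peak came from all 3 parts of the cluster. By list, the Hox genes with a promoter peak numbered 7 in normoxia (17.9%) and, in the order of time, 8 (20.5%), 12 (30.8%), 11 (28.2%), 12 (30.8%), 11 (28.2%) and 9 (23.1%) in hypoxia. The shares of all genes were 51.2% in normoxia and 49.8%, 54.4%, 52.7%, 52.6%, 53.2% and 51.2% in hypoxia.

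The 4 Hoxa genes with a promoter peak in hypoxia lists alone are described from posterior to anterior. Hoxa13, which patterns the distal limb and the urogenital tract, had a promoter peak at 12, 24, 36 and 48 h (Hoxa-R3, summit 110 bp from the start). Its fold enrichment was 5.99, 6.68, 3.42 and 3.41 in that order. The summit held 19, 18, 10 and 11 reads in these lists. Normoxia, 6 h and 72 h had no peak there.

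Hoxa6, a central gene that acts in the thoracic skeleton, had a promoter peak in all 6 hypoxia lists, and was the only Hox gene with that pattern, which 0.445% of all genes showed. The peaks came from 3 separate regions. Hoxa-R9 was present from 12 h on, with folds of 2.67, 2.57, 3.85, 3.29 and 3.68 through 72 h. Hoxa-R10 was present at 6 h alone, with a fold of 2.55 and 15 reads, and Hoxa-R11 at 12 h and 24 h, with 2.71 and 2.8. No region of the windows was itself in all 6 hypoxia lists and absent from normoxia. All of these folds were below the median of their list, and the local background was 1.62 to 3.98 times that of the genome. The highest -log10 q at the promoter was 1.83 at 6 h, 4.25 at 12 h and 3.64 at 24 h. It was 5.98 to 7.21 from 36 h on, so at 5 or more the pattern was left at 36, 48 and 72 h only.

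Hoxa4, which acts in the cervical vertebrae, had a promoter peak at 12 h and 36 h. Hoxa-R15 had a fold of 4.49 with 14 reads at 12 h and of 5.28 with 16 reads at 36 h. Hoxa2, which patterns the second branchial arch and the hindbrain, had a promoter peak from 12 h on (Hoxa-R20, in the 5′ UTR of the gene). Its fold enrichment was 2.87, 3.19, 3.6, 3.2 and 3.72 in time order. The number of summit reads was 19, 14, 18, 23 and 22, each over a background of 1.93 to 2.58 times that of the genome.

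Hoxd3 was the one gene outside Hoxa with this pattern. It acts in the upper neck, and its longest transcripts start beside Hoxd8. The peak, Hoxd-R3, lay at that far start and was present from 12 to 48 h, with folds of 3.94, 4.13, 4.3 and 4.08. These 4 values lay close together and below the median of each list.

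Among the genes with a promoter peak in all lists, Hoxa10, which patterns the lumbar spine and the uterus, had the highest median fold of the Hoxa genes, at 6.29. It drew on Hoxa-R4 and Hoxa-R6. Hoxa-R4 had a fold of 6.57 in normoxia and of 3.57, 5.69, 4.22, 4.85, 5.4 and 3.98 from 6 to 72 h, so normoxia was the highest of the 7. Hoxa-R6, which reached the promoters of both Hoxa10 and Hoxa9, was the widest region of the windows, at 1625 bp after merging. Its highest fold was 4.93 in normoxia and 4.18, 6.64, 6.29, 4.32, 5.58 and 6.43 in hypoxia. Each list had 2 or 3 separate peaks there, and the highest was not the same one in every list. The peak on the Hoxa9 side had folds of 4.93 in normoxia and 3.05, 6.64, 4.22, 3.31, 5.58 and 3.08 from 6 to 72 h. Hoxa9, a posterior gene also known from blood stem cells and leukemia, had promoter folds of 3.05 to 6.64. The summits lay 989 to 1165 bp from its nearest start. With the summit itself required within 1 kb, Hoxa9 and Hoxc6 left the genes with a peak in all lists, which then numbered 5. Hoxa9 then had a peak in hypoxia without normoxia.

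Hoxa5, a gene known from lung and mammary epithelium, had a peak across its start (Hoxa-R12, summit 11 bp from the start). Its fold was 6.49 in normoxia and 6.63, 5.07, 5.85, 5.61, 4.11 and 4.84 from 6 to 72 h. Only the 6 h list stood above normoxia. Hoxa3, which acts in the pharynx and its glands, had peaks at the start nearest to its coding sequence (Hoxa-R18, 6.16 in normoxia and 4.17 to 7.55 in hypoxia) and at the far start beside Hoxa6 and Hoxa7 (Hoxa-R8, 4.77 in normoxia and 3 to 4.74 in hypoxia).

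Hoxa7, a central gene of the trunk, had its peak (Hoxa-R7) 25 bp from the start of its longer transcripts. The fold was 4.88 in normoxia and 4.64, 5.03, 5.82, 6.78, 7.18 and 5.96 from 6 to 72 h. As deposited, the folds from 12 h on were above normoxia and that at 6 h was below it. Relative to all regions of its list, as defined further on, the log2 difference from normoxia was 0.34 at 6 h and -0.03 at 12 h. By reads over the genome background, without that scaling, normoxia was the highest list at 11.9, with 6.46 to 11.7 in hypoxia.

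The Hoxc cluster was open at 1 gene. Hoxc6, which is known from the mammary gland and acts in the thorax, had a region of 1004 bp (Hoxc-R3) whose summit lay in an intron, 1128 bp from the nearest start. The fold enrichment was 5.19 in normoxia and 4.94, 11.3, 7.38, 6.47, 8.53 and 7.95 from 6 to 72 h. The summit held 9 reads in normoxia (exact Poisson 95% interval 4.12 to 17.1) and 42 at 12 h (30.3 to 56.8), in lists of different depth. Divided by the genome background of the list, these were 9.72 (4.44 to 18.4) and 17.9 (12.9 to 24.3), and the intervals overlap. The normoxia list had the lowest fold but for 6 h, and the folds from 12 h on lay above both. By reads over the genome background, normoxia (9.72) lay above 6 h (6.15) and 36 h (9.46). It lay below 12, 24, 48 and 72 h (10.7 to 17.9). The other 8 Hoxc genes had no promoter peak. The other weaker regions stood elsewhere in the window, Hoxc-R2 near Hoxc8 in normoxia alone, and Hoxc-R1, 30106 bp from the Hoxc13 start, in normoxia and at 12, 24 and 48 h.

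The Hoxb cluster had no promoter peak at any of its 10 genes in any list. Its only inner region, Hoxb-R2, lay in the long gap between Hoxb13 and Hoxb9, 10916 bp from the nearest Hoxb9 start and within the gene Gm53. The fold was 6.75 in normoxia and 3.46, 3.59, 3.87, 3.73, 5.68 and 3.69 from 6 to 72 h. Normoxia was the highest value, with 48 h next. The window also held Hoxb-R3, 47553 bp beyond the Hoxb1 start, with a fold of 9.56 in normoxia and of 8, 14.6, 11.9, 8.68, 11.8 and 9.37 in hypoxia. With 63 reads at 12 h it had more reads than any other peak of the windows. Hoxb-R1, at the other edge of the window in Ttll6, was a normoxia peak of 7 reads.

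The Hoxd window held 1 region in all 7 lists, Hoxd-R5, in an intron of the long Hoxd3 transcripts, 4084 bp from the nearest Hoxd3 start, and in an exon of the antisense non-coding gene 1700109F18Rik. The fold was 7 in normoxia and 5.87, 7.2, 6.93, 5.68, 6.43 and 8.02 in hypoxia, with normoxia inside that range. Hoxd-R2, between Hoxd13 and Hoxd12, had a fold of 4.15 in normoxia, 4.79 at 12 h and 3.51 at 24 h. Hoxd-R1, 4607 bp from the Hoxd13 start on the side of Evx2, was present at 12, 24 and 48 h, and Hoxd-R6, on the side of Mtx2, at 12, 36, 48 and 72 h. None of the 9 Hoxd genes had a peak at the start nearest to its coding sequence.

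The presence of the 34 regions over the lists was then set against that of all regions. All 7 lists held 13 of them (38.2%, exact binomial 95% interval 22.2 to 56.4), against 33.2% of all regions. In 1 or more hypoxia lists and not in normoxia were 14 (41.2%, 24.6 to 59.3), against 46.8%. Normoxia alone held 2 (5.88%, 0.72 to 19.7), Hoxb-R1 and Hoxc-R2, against 2.75%. All 6 hypoxia lists and not normoxia held 0 of 34, which allows a share of up to 10.3% by the same exact interval, against 1.5% of all regions. Each of these background shares lay inside the interval. By cluster, 10 of the 14 regions without a normoxia peak were in the Hoxa window and 4 in the Hoxd window.

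**Figure D4:**
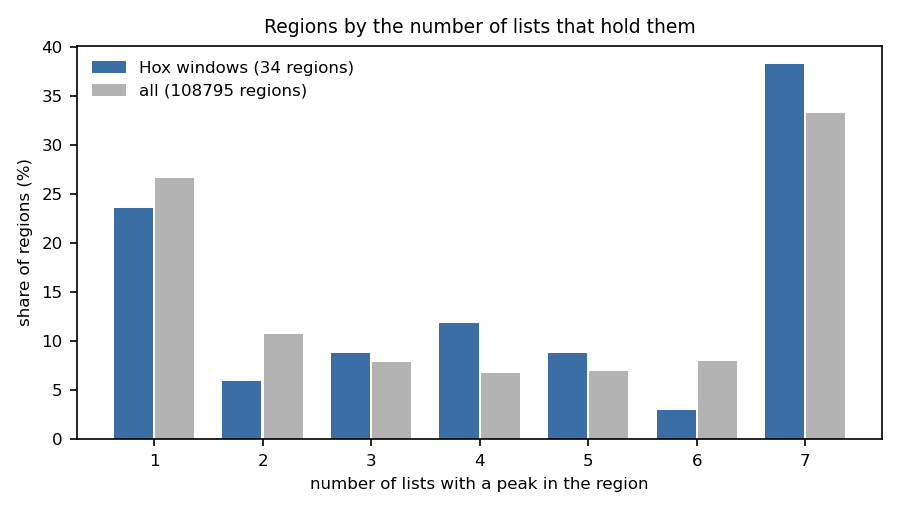
Share of regions (%) by the number of the 7 lists that hold them, for the 34 regions of the Hox windows and all 108795 regions. In both sets the largest shares are at 1 list (23.5% and 26.6%) and 7 lists (38.2% and 33.2%).

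The same was done for each hypoxia list against normoxia. A gained peak was one of the hypoxia list with no shared base in normoxia, and a lost peak the converse. At 6 h, 2 of 17 Hox peaks were gained (11.8%, against 14.2% of all peaks) and 6 of the 22 normoxia peaks were lost (27.3%, against 30.4%). At 12 h, 10 of 30 were gained (33.3%, against 34.6%) and 2 of 22 lost (9.09%, against 8.93%). At 24 h, 7 of 26 were gained (26.9%, against 28.9%) and 3 of 22 lost (13.6%, against 14.1%). Through 24 h the windows thus changed by nearly the share of the whole list.

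At 36 h, 8 of 23 Hox peaks were gained (34.8%, against 24.2%) and 6 of 22 lost (27.3%, against 20.6%). At 48 h, 6 of 24 were gained (25%, against 30.7%) and 4 of 22 lost (18.2%, against 13.1%). At 72 h, 5 of 23 were gained (21.7%, against 27.9%) and 5 of 22 lost (22.7%, against 22.9%). The share of all peaks lay inside the exact binomial interval of the Hox share in all 12 cases. Gained peaks were in the Hoxa and Hoxd windows, and none was in the Hoxb or Hoxc window. The lost peaks were weak, with a highest fold of 5.19 and as few as 7 reads.

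For the 13 regions present in all lists, the fold enrichments were compared on a log2 scale, as hypoxia minus normoxia after subtracting the median difference of all 36113 such regions in that list. Those subtracted medians ran from -0.41 at 6 h to 0.07 at 12 h. Where a region had several peaks in a list, the highest fold was used. The summit compared could then differ between lists, as at Hoxa-R6 and Hoxa-R8. The median over the 6 times was then taken for each region. Over the 13 Hox regions it had a median of -0.04 and ranged from -0.68 to 0.60, with 6 regions higher and 7 lower in hypoxia. Over all regions 25% were under -0.17 and 25% over 0.19. The Hox regions thus moved in both directions.

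Past a relative difference of 1.5-fold were 1 Hox region on the higher side (4.69% of all regions) and 1 on the lower side (1.86% of all regions). The higher region was Hoxc-R3 at Hoxc6, at 0.60, above 0 at all 6 times (0.34 to 1.04). Next were Hoxa-R7 at Hoxa7, at 0.43 and higher at every time but 12 h, and Hoxa-R1 between Hoxa13 and Evx1, at 0.32 and higher at all 6. The lower region was Hoxb-R2 in the gap before Hoxb9, at -0.68, below 0 at all 6 times (-0.98 to -0.23). It was followed by Hoxa-R8 at the far start of Hoxa3, at -0.50 and lower at 5 of 6 times, and Hoxa-R4 in Hoxa10, at -0.39 and lower at all 6. The normoxia value, on which all 6 differences of a region rest, had 9 reads at Hoxc-R3 and 12 at Hoxb-R2, so the 6 differences are not independent. Without centring, and with summit reads over the genome background in place of fold enrichment, these 6 regions kept their direction. Hoxc-R3 was then at 0.56 and 0.90 and Hoxb-R2 at -0.86 and -0.45, so that each fell short of 1.5-fold in 1 of these settings. Hoxa-R1, at 0.24 and 0.72, passed it with reads over the genome background. The Hox regions past 1.5-fold were thus 0 higher (3.15% of all regions) and 1 lower (3.87%) without centring, and 2 higher (12.1%) and 0 lower (3.83%) with reads over the genome background. Of the other 7 regions Hoxa-R18 changed sign (0.09 to -0.08).

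**Figure D5:**
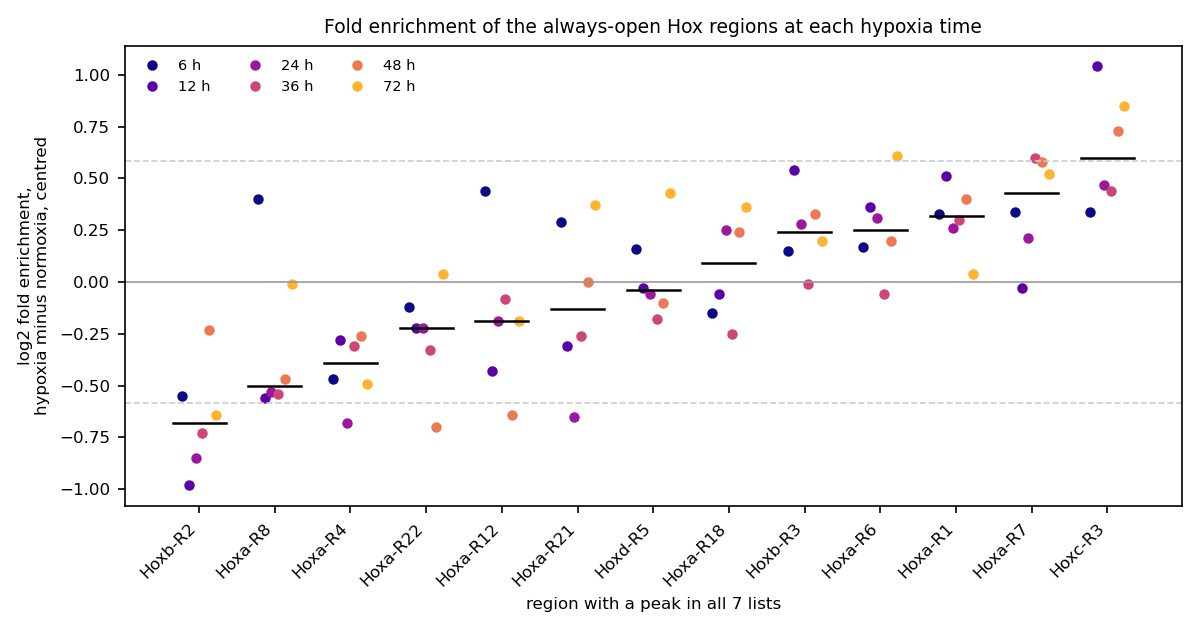
Log2 fold enrichment in hypoxia minus normoxia, centred on all regions, for the 13 Hox regions present in all lists. Points are the 6 hypoxia times, black bars their median, and dashed lines a 1.5-fold difference. The medians run from -0.68 at Hoxb-R2 to 0.60 at Hoxc-R3.

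The width and sequence of the regions were compared with those of all regions as a description. The median width was 447.5 bp in the Hox windows and 453 bp over all regions. In the Hox windows 3 were 1 kb or wider (8.82%, against 8.85%), Hoxa-R6 and Hoxc-R3 among them. Within 100 bp of the summit the Hox regions had a median GC content of 58.5%, against 48.3%, and a median ratio of observed to expected CpG of 0.588, against 0.199. The 31 CpGs of the 201 bases printed for Hoxa-R3 show the high end of this range, with a ratio of 0.939.

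The HIF letters ACGTG or GCGTG occurred within 100 bp of the summit in 19 of 34 Hox regions (55.9%), against 23.6% of all regions. These letters contain a CpG. Among regions with a CpG ratio of 0.5 or more the share was 63.6% in the Hox windows (14 of 22) and 55.4% over all. Among the others the share was 41.7% (only 5 of 12) and 18%. In the Hox regions of all 7 lists it was 61.5%, against 31.7% of all such regions, and in the rest 52.4%, against 19.5%. The AP-1 letters occurred in 4 regions (11.8%, against 37.5%): Hoxa-R4, Hoxa-R5, Hoxa-R13 and Hoxb-R2. In the CpG-rich subset the AP-1 shares were 9.09% in the Hox windows and 11.4% over all. Among the other regions they were 16.7% (2 of 12) and 42%.

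The homeobox core TAATTA occurred in 1 region, Hoxb-R2 (2.94%, against 3.09%), and the PBX-HOX letters TGATNNAT in 4 (11.8%, against 10.9%), all in the Hoxa window. The CTCF consensus was matched with 1 mismatch in 4 regions (11.8%, against 8.79%): Hoxa-R7 at Hoxa7, Hoxa-R12 at Hoxa5, Hoxb-R1 in Ttll6 and Hoxd-R2 between Hoxd13 and Hoxd12. In the printed sequences, the CTCF letters of Hoxd-R2 lie 37 bp from the summit and those of Hoxa-R12 88 bp. The HIF letters of Hoxb-R3 lie 12 bp from its summit.

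Genes that act with or on the Hox clusters were counted in the same way, where 46.7% of all genes had a promoter peak in every list and 42.2% had none in any. Of the 9 HOX cofactor genes, whose products bind DNA together with HOX proteins, 8 were open at the promoter in every list. Pknox1 ranged from 9.33 to 14.4 in fold enrichment and Meis1 from 6.61 to 8.69. The exception was Pbx2, with a peak in normoxia and at 24, 36 and 72 h. Of 12 genes of the Polycomb complexes, which silence Hox genes, 9 had a peak in all lists, Suz12 at 8.29 to 13.8 and Ezh2 at 7.19 to 10. Pcgf2 had one at 6, 12 and 24 h, Ring1 at 12, 24 and 36 h, and Cbx7 in all lists but 6 h. Of 9 genes for the opposing MLL complex, histone H3K27 demethylases, Ctcf and Rad21, 7 had a peak in all lists, Wdr5 in all but 72 h and Kdm6b in none.

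Cdx factors and retinoic acid receptors are known to switch on Hox clusters in the embryo. The 3 Cdx genes had no promoter peak in any list. Of the 6 retinoic acid and retinoid X receptor genes, 3 (Rara, Rarg and Rxrb) had a peak in all lists, Rarb at 12, 36 and 48 h, Rxra at 12 and 48 h, and Rxrg in none. None of the 6 microRNA genes of the clusters in the annotation (Mir10a, Mir10b, Mir196a-1, Mir196a-2, Mir196b and Mir615) had a peak within 1 kb of its start. Of the neighbours of the clusters, Mtx2 and Skap2 had a promoter peak in all lists, whereas Evx1, Evx2 and Skap1 had none.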

How the data were processed

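The labels gave 14 bulk ATAC-seq samples in 7 groups. The authors aligned the reads to mm9 with Bowtie2 2.1.0, took out duplicates with Picard 1.79, pooled both replicates and called peaks with MACS2, as stated in their methods and processing notes (MACS2 version not given in the sources used here). Fold enrichment, a ratio of reads at the summit over the background around it with 1 added to each, was deposited without scaling between lists. The added 1 lowers the fold more where reads and background are few. At Hoxc-R3 in normoxia, 9 reads over a background of 0.926 gave a fold of 5.19. The deposited -log10 p-value and -log10 q-value of each summit came from the same caller. The lowest -log10 q of the lists was 1.30 to 1.31, a looser threshold than the methods state. The exclusion of blacklisted regions was not applied here.

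NCBIM37 (mm9) and its GENCODE annotation gave genes and sequence. A peak was a unique interval, represented by its summit of highest -log10 q. Peaks that touched or overlapped were merged into regions, numbered along each window from the group 13 end. Intervals were exact (Clopper-Pearson or Poisson, 95%). Summit reads and background were solved from fold and p to within 0.005 in -log10 p. Simulated data gave the built value in 14 of 14 checks. These covered summit reads, merging into regions, presence in all lists, gained and lost peaks, promoter peaks, the log2 difference, motif letters and GC content. The other calculations had no such check. By rule, values were given for Hox genes whose promoter peak differed between normoxia and hypoxia, and the strongest gene and region of each cluster. Also named were regions in normoxia alone, regions in all 6 hypoxia lists without normoxia, and the 3 largest differences in each direction. Other Hox genes and regions were added after their values were seen. Some genes of these lists are not reported here. The members and the gene lists were chosen with earlier results of these data known. Alternatives covered the threshold, list length, window, promoter, overlap, centring and each hypoxia list. Python 3.11.15, NumPy 2.4.6, SciPy 1.17.1, pandas 2.3.3 and matplotlib 3.10.9 were used.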

Additional observations from a re-analysis of the deposited data

How the results depend on the processing

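No paired analysis was possible because the lists hold no value per replicate, so the precision of every share is that of its small counts. Of 162 alternative values for 21 results, 141 stayed near the main value. That meant within counting error for shares, within 1.5 times for gene counts, and within 0.147 for the median difference. The last is the standard deviation of that difference over the 6 hypoxia lists. With the 20000 strongest peaks of each list, which left 7 regions in the windows, the share in all 7 lists was 14.3% and in normoxia only 0%. The gained share was then 50% at both 6 and 72 h, 66.7% at 12 and 48 h and 0% at 24 h, and the lost share was 66.7% from 12 through 48 h, of 1 to 4 peaks each. In the same setting 0 Hox promoters were open in every list, 2 (Hoxa3 and Hoxc6) in hypoxia without normoxia, and 2 (Hoxa5 among them) in normoxia but not every hypoxia list. At -log10 q of 5 or more the lost share at 24 h was 40%, 1 gene (Hoxa9) was missing in a hypoxia list, and the median difference was 0.25 over 9 regions. With a promoter of 5 kb, 2 genes (Hoxa4 and Hoxa13) were in hypoxia without normoxia and 4 (Hoxa2, Hoxc8, Hoxd12 and Hoxd13) in normoxia but not every hypoxia list. With 1 start per gene, 3 genes were in all lists. Leaving out 1 hypoxia list at a time gave a median difference of -0.13 to 0.11, highest without the 36 h list, where Hoxa-R13 joined the regions compared.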
